A study of Mus musculus with 2 samples.

Results

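*Prdm12*+ *Sox10*+ *Neurog1*- cells were examined in embryonic mouse, as cells that hold a transcript of the nociceptor factor *Prdm12* while they still hold one of the glial factor *Sox10*. They were selected on their own counts: cells with at most 10% mitochondrial UMIs and at least 2000 UMIs (E11.5) or 1000 UMIs (E12.5) were kept, and of these a cell was taken with 1 or more UMIs of *Prdm12*, 1 or more of *Sox10* and 0 of *Neurog1*. A UMI is 1 counted RNA molecule. The rule gave 162 of 4403 kept cells, 50 of 840 at E11.5 and 112 of 3563 a day later. Since these 3 genes chose the cells, their values describe the choice and carry no finding.

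The study used single-cell RNA sequencing to follow the progeny of boundary cap cells, which sit where spinal roots meet the neural tube. Embryos carried *Egr2Cre* on 1 allele with the Cre-dependent *R26-Tomato* reporter, so Tomato marks cells that had *Egr2* on, or that descend from them, and not *Egr2* itself at the time of sorting. Meninges with dorsal root ganglia (DRGs) and roots were dissected, and Tomato-positive cells were sorted at E11.5 and at E12.5, with 1 library per stage and no other treatment or genotype. The deposited tables held 1431 barcodes and 10287595 UMIs at E11.5 and 3762 barcodes and 23460243 UMIs at E12.5, with medians of 11607 and 6183 UMIs in a kept cell. Cells of 1 library are not replicates, so stage and library cannot be told apart, no test was made, and every interval is a 95% interval that covers counting error only. The libraries shared 9 barcodes, of which 1 belonged to a member. The labels name boundary cap cells, but the sort also held neurons, mesenchymal cells and pericytes, so the label was not taken as the type of any cell.

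PRDM12 is a PR-domain zinc finger protein that acts in repressive complexes in developing sensory neurons, and people who lack it cannot feel pain. In DRGs it comes on in the progenitors and newborn neurons of the nociceptor lineage, which detect painful stimuli, heat and itch. SOX10 marks neural crest cells and the glia made from them, NEUROG1 is the bHLH factor that drives the later wave of DRG neurogenesis, and new neurons then express *Pou4f1*, *Isl1*, *Tlx3* and *Drgx*. On GRCm39, *Prdm12* (ENSMUSG00000079466) lies at chr2:31529730-31545807 on the plus strand, *Sox10* (ENSMUSG00000033006) at chr15:79039108-79049469 on the minus strand and *Neurog1* (ENSMUSG00000048904) at chr13:56398291-56399976 on the minus strand, all 3 protein coding.

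The members were 9.58% (7.19–12.4) of the 522 *Sox10*+ cells in the E11.5 library and 7.24% (5.99–8.64) of the 1548 in the E12.5 library. They were the smaller part of the *Prdm12*+ cells. At E11.5, 177 cells had a *Prdm12* UMI: 50 were members, 61 had both *Sox10* and *Neurog1*, and 66 had no *Sox10*. At E12.5 there were 598, of which 112 were members, 59 had both, and 427 had no *Sox10*. In the counts of the rule, *Prdm12* was found in 43.9% (35.5–52.5) of the *Sox10*+ cells that held *Neurog1* at E11.5 and 31.9% (25.2–39.1) a day later, and in 13.1% (9.85–16.8) and 8.22% (6.81–9.80) of those that did not. The background of these counts was taken from cells that should lack *Prdm12*. Among cells with UMIs of at least 3 mesenchymal or pericyte genes and none of *Sox10* or *Isl1*, 1 of 57 (1.75%, 0.0444–9.39) had a *Prdm12* UMI at E11.5 and 0 of 209 a day later, which allows a share of up to 1.44%, at median depths of 8252 and 5824 UMIs against 12546.5 and 6330 in *Sox10*+ cells.

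The members rested on few molecules. Exactly 1 *Prdm12* UMI was found in 44 of 50 members at E11.5 and in 97 of 112 at E12.5, and exactly 1 *Sox10* UMI in 13 and 46. Just outside the rule, 19 of the 61 and 34 of the 59 *Prdm12*+ *Sox10*+ *Neurog1*+ cells were kept out by a single *Neurog1* UMI. The share moved with depth at E12.5, where *Prdm12* was found in 2.93% (1.42–5.33) of the shallowest of 4 equal groups of *Sox10*+ *Neurog1*- cells (median 3469 UMIs) and in 15.3% (11.6–19.6) of the deepest (median 10078). Its level moved too, from 8.83 to 16.9 UMIs per 1000000. At E11.5 the same groups gave 13.5% (7.41–22.0) and 14.7% (8.30–23.5), at medians of 3375 and 19199 UMIs, with no order of the shares by depth, while the level was 41.6 UMIs per 1000000 in the shallowest group and 14.4, 7.51 and 10.1 in the next ones. The part of depth was not tested. After every cell was thinned to 2000 UMIs, cells with *Prdm12* and without *Neurog1* were 14 of 272 (5.15%, 2.84–8.49) of *Sox10*+ cells (E11.5) and 21 of 809 (2.60%, 1.61–3.94, E12.5). The mesenchymal or pericyte cells, thinned alike, had *Prdm12* in 1 of 57 and 0 of 198, so at that depth the interval at E11.5 overlapped that of the background (up to 9.39%). At E12.5 the 0 of 198 allows a share of up to 1.52%, under the members' lower limit of 1.61%, while its exact 95% limit of 1.85% lies above it. Overlap of such intervals does not show that 2 shares are alike, and the difference from the background was not tested. Before thinning, *Prdm12* was in 8.22% (6.81–9.80) of *Sox10*+ *Neurog1*- cells at E12.5 and in 0 of 209 background cells.

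**Figure D1:**
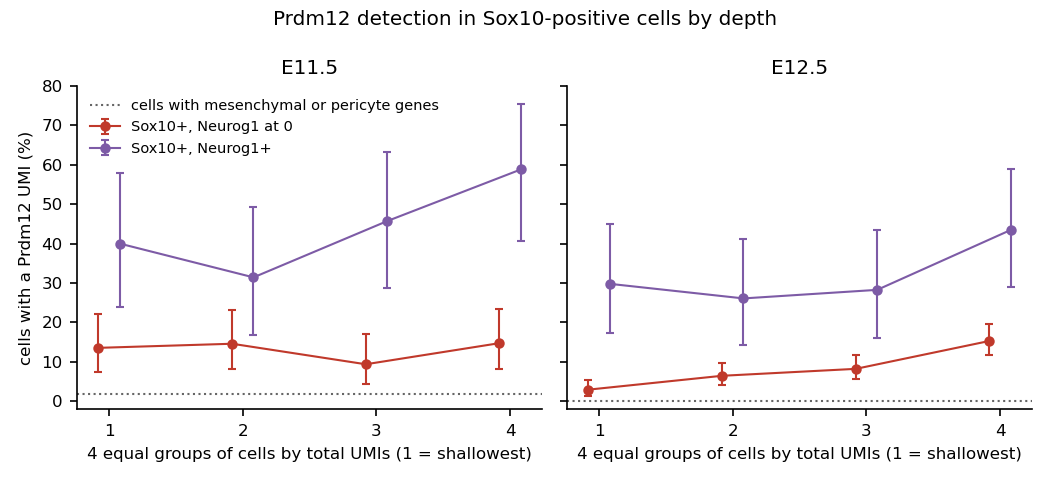
Share of *Sox10*+ cells with a *Prdm12* UMI (percent, y axis) in 4 equal groups of cells ordered by total UMIs (x axis), for cells with *Neurog1* at 0 and with *Neurog1*, at E11.5 (left) and E12.5 (right). Points are shares of cells, bars 95% exact binomial intervals, and the dotted line is the share in cells with mesenchymal or pericyte genes (1.75% and 0). The *Neurog1*+ cells are above the others in every group, and the *Neurog1*- cells go from 2.93% to 15.3% with depth at E12.5 alone.

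Each member was set against 3 *Sox10*+ *Prdm12*- cells of its own library that were nearest to it in total UMIs. These comparison cells numbered 150 at E11.5 and 336 a day later, with median UMIs of 11863.5 and 8019.5 against 11862.5 and 8012.5 in the members. They may hold *Neurog1*, while the members cannot: 31 of 150 and 35 of 336 had it. Where that difference matters, a set of comparison cells with *Neurog1* at 0 is given beside it. Doublet scores were not used by the rule. A Scrublet score of 0.2 or more was found in 1 of 50 members and 1 of 150 comparison cells at E11.5, and in 10 of 112 (8.93%, 4.36–15.8) and 16 of 336 (4.76%, 2.75–7.62) at E12.5.

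The label of glia held for most members and not for all. Of *Pou4f1*, *Isl1* and *Tlx3* (*Drgx* was not analysed here), none was detected in 29 of 50 members at E11.5 and in 53 of 112 at E12.5, 1 gene in 13 and 19, a pair in 5 and 14, and all 3 in 3 and 26. More pan-neuronal than glial UMIs were found in all 3 and all 26 members with the 3 genes, and also in 23 of the other 47 members at E11.5 and 12 of the other 86 at E12.5, so that this count set the cells apart mainly at E12.5. In CPM, the UMIs of a gene or list in a group of cells per 1000000 UMIs of that group, their pan-neuronal list (26 genes such as *Tubb3*) stood at 23702 (22228–25249) in the E11.5 library and 26631 (26033–27240) in the E12.5 library, and their glia list (20 genes such as *Fabp7* and *Erbb3*) at 172 (69.3–355) and 1479 (1341–1628). Glial counts varied among the 26 cells of E12.5, from 0 to 5022 CPM of the glia list with a median of 316, and 8 of them had 2000 CPM or more. The other 47 and 86 members, here the 0-to-2-gene members, had 3543 (3390–3700) and 4320 (4165–4480) CPM of the pan-neuronal list and 3694 (3539–3855) and 7620 (7413–7830) CPM of the glia list. Comparison cells with 0 to 2 of the genes had 3775 (3683–3869) and 3926 (3849–4004) CPM of the first and 3716 (3624–3810) and 6508 (6409–6609) of the second. At E11.5 the 0-to-2-gene members thus lay near these comparison cells on both lists, and at E12.5 both lists were higher in the members. The higher glia list rested on *Fabp7*, without which it was 2878 (2751–3008) CPM in these members and 2990 (2923–3058) in the comparison cells. The higher pan-neuronal list rested on few cells, since the medians over cells were 3656 CPM in both groups while single cells reached 28440 CPM among the members and 29366 among the comparison cells, so that both groups still held some neuronal cells.

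**Figure D2:**
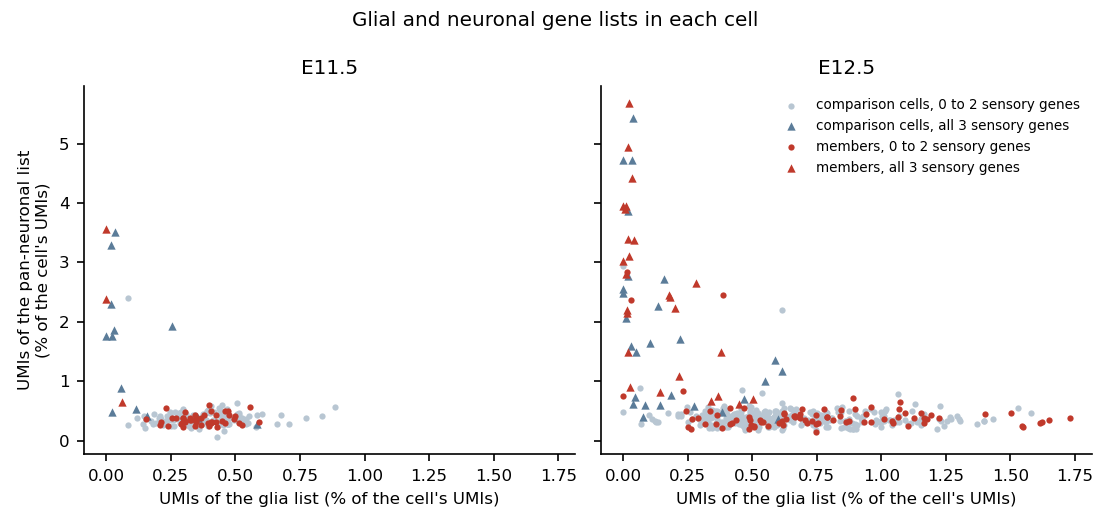
UMIs of the glia list (x axis) and of the pan-neuronal list (y axis) in each cell, as percent of the cell's UMIs, at E11.5 (left) and E12.5 (right). Red marks are members and blue marks comparison cells, and triangles are cells with UMIs of *Pou4f1*, *Isl1* and *Tlx3*. Most members lie in the cloud of comparison cells low on the y axis, and the triangles rise along it, with 3 triangles of members at E11.5 and 26 a day later.

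*Sox10*, of which the rule asked 1 UMI in every member, is given for the members with all 3 genes as a description. It stood at 73.9 (15.2–216) CPM at E11.5 and 152 (110–205) a day later, against 317 (273–367) and 378 (333–427) in the 0-to-2-gene members, and 3 of 3 and 18 of 26 of them held exactly 1 *Sox10* UMI. Among all kept cells with the 3 sensory genes, *Sox10* was found in 45 of 223 (20.2%, 15.1–26.1) at E11.5 and 142 of 1263 (11.2%, 9.55–13.1) a day later. In those that also had *Prdm12* and no *Neurog1* it was found in 3 of 10 (30.0%, 6.67–65.2) and 26 of 270 (9.63%, 6.39–13.8), and nothing is read from these shares. At E12.5, 9 of the 26 members with all 3 genes had a doublet score of 0.2 or more, against 1 of the other 86, and so did 8 of the 27 comparison cells with all 3 genes. The part of doublets and of free RNA in these cells was not tested.

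The share of members with 2 or more sensory genes was set against that of the comparison cells in each library. At E11.5, 16% (7.17–29.1) of members had 2 or more of them and 14% (8.88–20.6) of comparison cells did. At E12.5 it was 35.7% (26.9–45.3) against 12.8% (9.42–16.8), and the intervals did not overlap. With 2 or more *Prdm12* UMIs asked, the share of members was 0% at E11.5 and 73.3% at E12.5, on few cells. That many UMIs were held by 6 of the 0-to-2-gene members and 0 of those with all 3 genes at E11.5, and by 7 and 8 at E12.5. After thinning to 2000 UMIs, which left 21 members at E12.5 and also took UMIs of the sensory genes, the share was 0% in that library. Against comparison cells with *Neurog1* at 0 the members were higher in both, by less at E11.5: these cells had 2 or more genes in 7.33% (3.72–12.7) and 8.63% (5.86–12.2), and the interval at E11.5 overlapped that of the members. For scale, 87.9% (77.5–94.6) and 93.7% (90.9–95.8) of *Prdm12*+ *Sox10*- cells, and 44.6% (36.2–53.3) and 45.9% (38.6–53.4) of *Sox10*+ *Neurog1*+ cells, had 2 or more. The intervals of the members overlapped between the stages, and the difference between the stages was not tested.

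**Figure D3:**
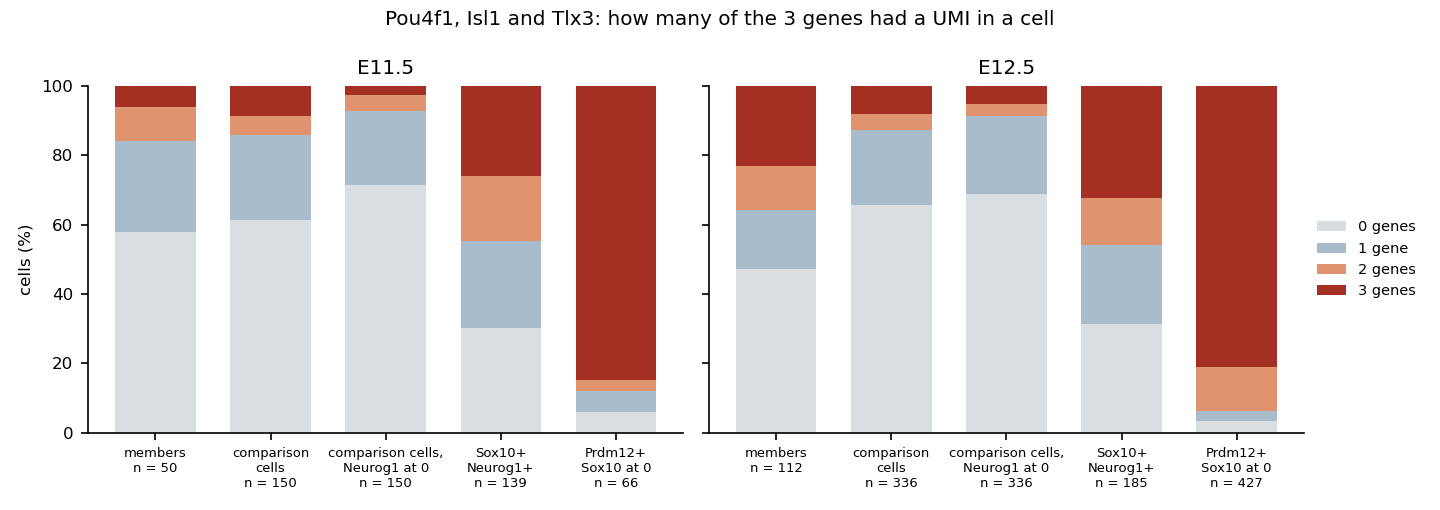
Stacked bars of the share of cells (percent, y axis) with UMIs of 0, 1, 2 or 3 of *Pou4f1*, *Isl1* and *Tlx3*, at E11.5 (left) and E12.5 (right), for 5 groups of cells with their numbers below. The bars of members and comparison cells look alike at E11.5, while the 3-gene part at E12.5 is 23.2% of the members and 8.04% of the comparison cells.

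The factors of sensory identity followed that order. *Isl1*, a LIM-homeodomain factor, had 59 UMIs in the members at E11.5, or 96.1 (73.1–124) CPM, against 109 CPM in the comparison cells, and 274 UMIs at E12.5, or 285 (252–321) CPM, against 99.8. The ratios were 0.88 (0.65–1.19) and 2.86 (2.41–3.39). At E11.5 a single member held 33 of the 59 UMIs. *Pou4f1*, which encodes the POU factor BRN3A, was detected in 34.0% and 37.5% of members and in 30.0% and 18.8% of comparison cells, with ratios of 1.34 (0.96–1.85) and 2.55 (2.05–3.16). *Tlx3*, a homeobox factor of sensory neurons, gave 0.93 (0.57–1.45) and 2.86 (2.23–3.66). *Eya2*, which encodes a transcriptional cofactor that acts early in sensory neurogenesis, gave 0.93 (0.65–1.32) and 1.59 (1.29–1.97).

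Against comparison cells without *Neurog1*, these genes were higher in both libraries. *Isl1* stood 2.59-fold and 4.34-fold higher, *Pou4f1* 2.53-fold and 3.55-fold and *Tlx3* 2.51-fold and 4.28-fold. At E11.5 the direction of *Isl1* and *Tlx3* therefore turned on whether *Neurog1*+ cells were among the comparison cells, while *Pou4f1* was above 1 in both cases. In that library the 3 members with all 3 genes held 51 *Isl1*, 37 *Pou4f1* and 22 *Tlx3* UMIs. The other 47 members held 8, 18 and 4. The comparison was also made without the cells that hold all 3 sensory genes, on both sides, with the nearest cells drawn anew for the 47 and 86 members left (141 and 258 comparison cells), and every ratio without the 3-gene cells comes from these. The ratios of *Isl1* were 1.49 (0.55–3.70) and 1.51 (0.95–2.37), those of *Pou4f1* 1.17 (0.64–2.06) and 1.60 (0.91–2.75), and those of *Tlx3* 1.20 (0.27–4.14) and 1.26 (0.56–2.64). All of these intervals reach 1, and leaving cells out by these 3 genes narrows their range.

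The genes of later sensory neuron classes named here were scarce in the members. *Runx1*, which later separates nociceptor classes, had 0 UMIs in members at E11.5 and 5 a day later, against 0 and 8 in comparison cells. *Ret*, a receptor of later nociceptors, and *Runx3*, a factor of proprioceptors, had 0 UMIs in members and comparison cells of both libraries, which allows up to 3 UMIs in each group. *Ntrk2* and *Ntrk3*, the receptor genes of mechanoreceptors and proprioceptors, had 1 and 0 UMIs in the members of E11.5 and 1 and 5 in those of E12.5. At this depth a difference in these genes was not detectable.

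Of 17 genes of neurogenesis with at least 30 UMIs in each library, 3 were at least 1.5-fold lower at E11.5 (*Btg2*, *St18* and *Cdkn1c*), against 10.5% of all genes, and 12 were higher at E12.5, against 5.51% of all genes, where the comparison cells may hold *Neurog1*. With *Neurog1* at 0 in these cells, *Neurod1* was 3.73 (2.29–6.14) and 4.89 (3.84–6.26), *Hes6* 1.86 (1.36–2.55) and 2.02 (1.65–2.47) and *Tubb3* 2.58 (2.17–3.06) and 4.19 (3.84–4.58), higher in both libraries. At E11.5 the 3 members with all 3 sensory genes held 31 *Neurod1*, 31 *Hes6* and 178 *Tubb3* UMIs, and the other 47 members 9, 37 and 75. *Neurod1*, a bHLH factor downstream of the neurogenins, had 65.1 CPM in members and 66.4 in comparison cells at E11.5 and 189 (163–219) against 60.1 at E12.5, ratios of 0.98 (0.67–1.41) and 3.15 (2.54–3.91). Without the 3-gene cells it was 3.36 (1.15–10.0) at E11.5, on 9 UMIs in members and 8 in comparison cells, and 1.85 (0.97–3.45) at E12.5. With *Isl1* at 0 on both sides it went below 1 at E12.5, to 0.30, a value given without an interval. In that setting 53 of the 66 members had 0 of the 3 sensory genes, and these 53 held 1 *Neurod1* UMI. *Hes6*, an inhibitor of HES1, gave 0.82 (0.62–1.08) and 1.46 (1.21–1.77). *Neurog2*, the factor of the first wave of neurogenesis, was in 1 member of each library, with 20 and 11 UMIs in the comparison cells, which can hold *Neurog1*. *Neurod4* gave 1.04 (0.40–2.41) and 1.84 (0.90–3.65). *Tubb3*, *Stmn2* and *Elavl3*, genes of the neuronal cytoskeleton and RNA binding, were 1.07 (0.92–1.23), 0.72 (0.46–1.08) and 0.70 (0.46–1.02) at E11.5. At E12.5 they were 3.12 (2.87–3.38), 4.97 (4.25–5.83) and 3.01 (2.48–3.66). With *Neurog1* at 0 in the comparison cells, *Stmn2* at E11.5 was 1.31 (0.82–2.06). In the same setting *Elavl3* was 1.92 at E11.5, with a lower limit of 1.21, and 4.63 (3.72–5.77) at E12.5. With *Isl1* at 0 on both sides, the log2 ratio of *Elavl3* at E12.5 turned to -0.18. Without the 3-gene cells *Tubb3* was 1.47 (1.10–1.94) and 1.49 (1.20–1.85), but at E12.5 the 14 members with a pair of sensory genes held 70 of its 128 UMIs. In members with 0 or 1 sensory gene it had 106 (80.3–137) and 102 (77.6–132) CPM, and in such comparison cells 86.8 (73.1–102) and 80.5 (69.5–92.7), with intervals that overlapped in both libraries.

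Among glial genes, some were close to the level of the comparison cells and others lower. *Fabp7*, a fatty acid binding protein of immature glia, gave ratios of 1.10 (1.03–1.18) and 1.08 (1.04–1.12), and without the 3-gene cells 1.14 (1.06–1.22) and 1.37 (1.31–1.43). *Foxd3*, a factor of neural crest and early glia, gave 1.06 (0.58–1.84) and 1.02 (0.55–1.80). *Erbb3*, the neuregulin receptor of Schwann cell precursors, was 0.95 (0.71–1.26) and 0.66 (0.50–0.85). It was nearer to 1 at E12.5 without the 3-gene cells, at 0.78 (0.58–1.04). *Itga4* and *Sox8* gave intervals across 1 in both libraries.

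*Sox9*, a factor of progenitors and glia that often acts with SOX10, was lower in both libraries. It was found in 5 of 50 members and 40 of 150 comparison cells at E11.5, and in 7 of 112 and 43 of 336 at E12.5, with 14.7 (6.70–27.8) against 39.2 CPM and 8.33 (3.6–16.4) against 19.8. The ratios were 0.37 (0.16–0.75) and 0.42 (0.17–0.89). *Gfra3*, the artemin receptor subunit, which is on in Schwann cell precursors, was 0.32 (0.08–0.90), on 4 UMIs in members, and 0.43 (0.30–0.61). *Postn*, an extracellular matrix protein gene, was 0.56 (0.45–0.70) and 0.61 (0.52–0.72). Without the 3-gene cells *Sox9* gave 0.34 (0.15–0.68) and 0.51 (0.19–1.15), *Gfra3* 0.27 (0.07–0.75) and 0.43 (0.29–0.62) and *Postn* 0.55 (0.44–0.68) and 0.70 (0.58–0.84), so these genes were also lower in the 0-to-2-gene members, with an interval that reached 1 for *Sox9* at E12.5.

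Of 6 boundary cap genes compared, 3 were at least 1.5-fold lower in members at E11.5, against 10.5% of all genes, and 1, *Prss56*, in both libraries, against 1.99%. *Prss56*, a protease gene that marks these cells, was found in 22.0% of members and 26.7% of comparison cells at E11.5 and in 18.8% and 28.6% at E12.5, with ratios of 0.40 (0.23–0.65) and 0.52 (0.39–0.67). A single comparison cell held 19 of 136 UMIs at E11.5 and another 35 of 365 at E12.5. *Egr2*, the gene that carries Cre on 1 allele here, had 4 UMIs in 4 members at E11.5 against 57 UMIs in 34 comparison cells, a ratio of 0.21 (0.06–0.57), and 24 against 78 at E12.5, a ratio of 0.91 (0.55–1.45). *Npr3*, a natriuretic peptide receptor gene named after its values were seen, was level, with 106 CPM in members and 103 in comparison cells at E11.5 and 179 against 189 at E12.5. The third lower gene at E11.5 was *Ntn5*.

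*Sox2*, a factor of neural progenitors, was 1.64 (1.05–2.51) and 1.32 (0.92–1.87), and 1.52 (0.97–2.32) and 1.62 (1.10–2.37) without the 3-gene cells. *Hes1*, a repressor of neurogenesis downstream of Notch, was found in 50.0% of members and 28.0% of comparison cells at E11.5, a ratio of 1.67 (1.12–2.46), and in 20.5% and 25.6% at E12.5, a ratio of 0.78 (0.54–1.11). *Hes5*, *Notch1* and the ligand genes *Dll1* and *Dll3* had intervals across 1 in both libraries. *Mki67*, a gene of cycling cells, was 0.83 (0.54–1.24) and 1.05 (0.78–1.41), and *Top2a*, which peaks in G2 and M phase, 0.81 (0.67–0.97) and 0.73 (0.62–0.85). The list of G2 and M genes summed to 2549 (2420–2683) CPM in the 0-to-2-gene members and 2597 (2521–2676) in comparison cells with 0 to 2 of the genes at E11.5, and to 2606 (2486–2731) and 3009 (2942–3077) at E12.5. These comparison cells are from the first draw, with median UMIs of 11913 and 7953 against 11831 and 7343.5 in these members. In the members with all 3 sensory genes it was 345 (189–579) and 609 (521–707). The 0-to-2-gene members thus held G2 and M genes near the level of these comparison cells at E11.5 and lower at E12.5. Against the cells drawn anew for them, the median log2 ratio of the list was -0.08 and -0.30. All members had 2403 (2282–2529) CPM of this list at E11.5 and 2019 (1930–2110) at E12.5. All *Sox10*+ *Prdm12*- cells, of any depth, had 2390 (2347–2434) and 2234 (2204–2265).

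**Figure D4:**
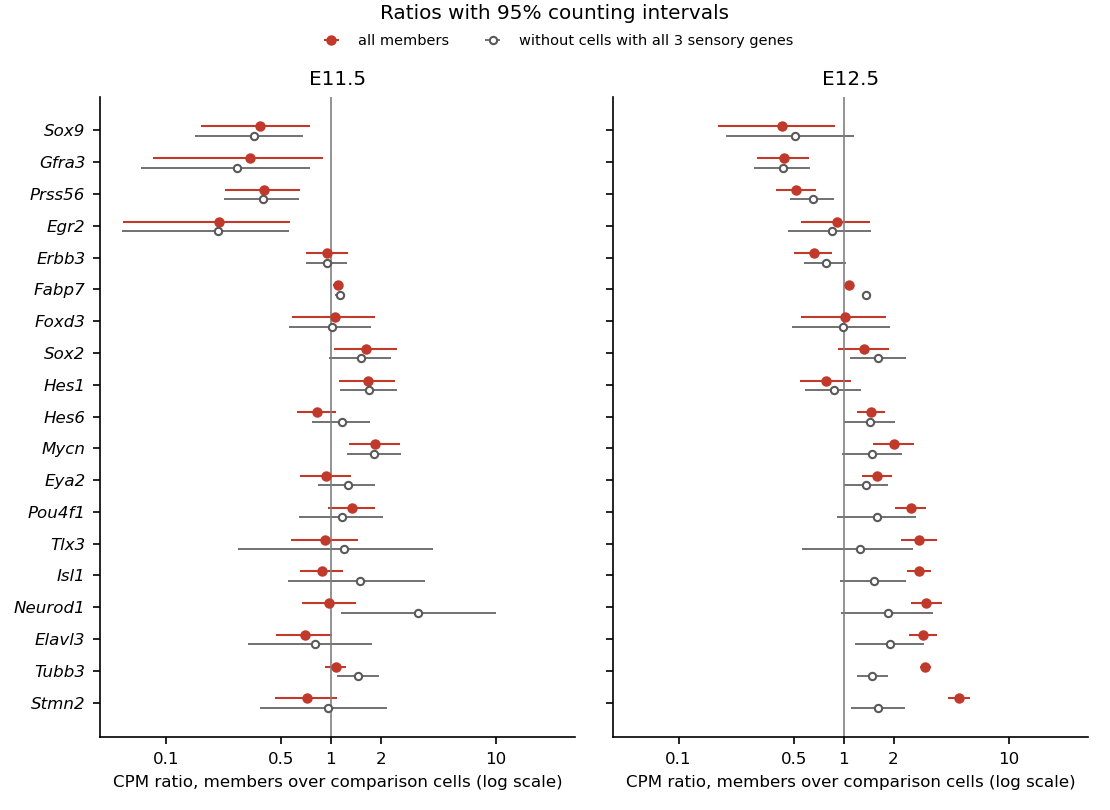
Ratio of the CPM of members to that of comparison cells (x axis, log scale) for 19 genes at E11.5 (left) and E12.5 (right). Filled points are all members and open points leave out cells with *Pou4f1*, *Isl1* and *Tlx3* on both sides, with 95% counting intervals. *Sox9*, *Gfra3* and *Prss56* lie left of 1 in both libraries, and the sensory and neuronal genes lie right of 1 at E12.5, nearer to 1 for the open points.

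Gene lists were counted among the 7837 genes with at least 30 UMIs in members and comparison cells of each library, at a ratio of 1.5 or more either way. The medians of all of them were -0.02 and -0.03 in log2 ratio. At E12.5, 7 of 8 pan-sensory factors, 12 of 17 genes of neurogenesis and 15 of 19 pan-neuronal genes were higher, against 5.51% of all genes, with median log2 ratios of 1.33, 1.01 and 1.5. At E11.5 it was 0, 0 and 1, against 4.89% of all genes, with medians of -0.10, -0.10 and -0.13. With *Neurog1* at 0 in the comparison cells the medians at E11.5 were 1.33, 0.99 and 0.36, and 6 of 8, 8 of 12 and 6 of 18 genes were higher in both libraries, against 1.24% of all genes. Without the 3-gene cells, 4, 7 and 15 genes of these lists could be compared, with comparison cells that may hold *Neurog1*. The medians were then -0.01, 0.12 and -0.04 at E11.5 and 0.44, 0.36 and 0.35 at E12.5, and 0, 1 and 1 genes were higher in both libraries, against 0.363% of all genes. Lower genes were 10.5% of all at E11.5, 7.94% at E12.5 and 1.99% in both libraries. Of 18 glia genes, 5 and 4 were lower and 3 of them in both (*Postn*, *Sox9* and *Gfra3*), of 6 boundary cap genes 3 and 1, and of 15 G2 and M genes 0 and 6. The nociceptor list had 4 of its 19 genes with enough UMIs to be compared, of which *Klf7* was higher, at 1.52 (1.21–1.91), and *Gfra1* lower at E12.5. *Klf7* turned to 0.65 (0.42–0.98) at E12.5 without the 3-gene cells, and at E11.5 it was 0.93 (0.63–1.35) with them and 0.62 (0.34–1.07) without. The lists of Notch genes (13 compared), neural crest factors (9) and PR-domain genes with PRDM12 partners (6) had no gene past 1.5-fold the same way in both libraries. Of all genes, 0.51% were higher and 1.99% lower in both. With *Neurog1* at 0 in the comparison cells the Notch genes *Numbl* and *Mfng* were higher in both, against 1.24% of all genes. Without the 3-gene cells *Sox2* was higher and *Prdm4* lower in both, against 0.363% and 1.91% of all genes. Of the 2 genes of the mesenchymal and pericyte list that were compared, *Col3a1* was lower in both.

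Over all genes, 40 (0.51%) were at least 1.5-fold higher in members in both libraries and 156 (1.99%) lower. The counting interval of the ratio was clear of 1 in both libraries for 12 of the 40 and 65 of the 156. With *Neurog1* at 0 in the comparison cells, 97 of 7835 genes (1.24%) were higher and 218 (2.78%) lower, and these took in 26 of the 40 and 141 of the 156. Without the 3-gene cells, 27 of 7445 (0.363%) were higher and 142 (1.91%) lower, with 7 of the 40 and 85 of the 156 among them. With *Isl1* at 0 on both sides, 35 of 6928 (0.505%) were higher and 153 (2.21%) lower, with 7 and 61. Most of the higher genes were therefore not called without the 3-gene cells, while more of the lower ones were. These are counts at a threshold among fewer genes compared, and a gene can leave them with a similar ratio. Of the log2 ratios of named genes in this setting, 87 stayed within their counting interval and 20 left it. A further 5 past 1.5-fold changed sign.

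Among the higher genes ranked by the smaller of their 2 ratios, *Chst8*, a sulfotransferase gene, and *Nefl*, the light neurofilament, led with 2.20 (1.02–4.64) and 4.93 (3.33–7.37), and 1.98 (1.34–2.90) and 5.10 (4.22–6.19). A single cell held 37 of the 47 *Nefl* UMIs in members at E11.5. *Mycn*, a MYC family factor of progenitors and young neurons, was more even: it was found in 29 of 50 members and 59 of 150 comparison cells at E11.5, and in 43 of 112 and 83 of 336 at E12.5, with ratios of 1.85 (1.30–2.62) and 2.0 (1.51–2.65), and without the 3-gene cells 1.83 (1.26–2.64) and 1.49 (0.98–2.24). *Unc5c*, a netrin receptor gene, was 2.87 (1.89–4.36) and 1.72 (1.20–2.45), with 0.80 (0.44–1.39) at E12.5 without the 3-gene cells. *Zfp445*, which helps to keep genomic imprints, was 1.66 (0.82–3.24) and 1.64 (1.08–2.48), and 1.95 (0.95–3.90) and 2.07 (1.19–3.54) without them. *Nol4l*, at 2.02 (1.36–2.99) and 1.62 (1.06–2.42), and *Arhgap24*, which encodes a GTPase activating protein, at 2.24 (1.21–4.10) and 1.93 (1.29–2.87), had intervals above 1 in both libraries. With 2 or more *Prdm12* UMIs asked, which left only 6 members at E11.5, their log2 ratios in that library turned to -0.34 and -0.22. That of *Arhgap24* at E12.5 turned to -0.040 with *Isl1* at 0 on both sides. The other 8 named by this rank were *Dpysl5*, *Bbc3*, *Rufy3*, *Cep350*, *Mospd1*, *Khdrbs3*, *Pus10* and ENSMUSG00000120390.

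Among the lower genes, *Lin7a*, a scaffold protein gene, and *Rhoj*, a small GTPase gene, were nearly missing from the members of E11.5. *Lin7a* was in 1 of 50 members and 17 of 150 comparison cells at E11.5 and in 9 of 112 and 57 of 336 at E12.5, with ratios of 0.07 (0.00–0.43) and 0.30 (0.15–0.56). *Rhoj* was in 1 and 25 cells and in 9 and 62, with 0.09 (0.00–0.56) and 0.27 (0.12–0.54). *Ephb1*, an ephrin receptor gene, had 0 UMIs in the members of E11.5 and 37 in their comparison cells, and at E12.5 gave 0.32 (0.14–0.63). *Eva1b* was 0.21 (0.02–0.85) and 0.16 (0.04–0.43), and *Bok*, a BCL2 family gene, 0.30 (0.11–0.69) and 0.43 (0.23–0.74). *Col3a1*, a fibrillar collagen of mesenchyme, was 0.52 (0.31–0.82) and 0.43 (0.33–0.56), and *Dpysl3*, the only pan-neuronal gene lower in both, 0.53 (0.45–0.62) and 0.63 (0.56–0.71). In the 0-to-2-gene members all 7 kept a ratio under 1 in both libraries. The mesenchymal and pericyte list as a whole had 145 (116–178) CPM in members and 214 (194–237) in comparison cells at E11.5 and 229 (200–261) and 472 (447–498) at E12.5, with *Col1a2* its most abundant gene. The part of mesenchymal RNA in the comparison cells was not tested. *Loxl2*, *Fxyd7*, *Socs3*, *Camk2b*, *Prune1*, *Cenpk*, *Akr1b10* and *Gm29521* completed the lower genes named by rank with *Sox9* and *Gfra3*.

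**Figure D5:**
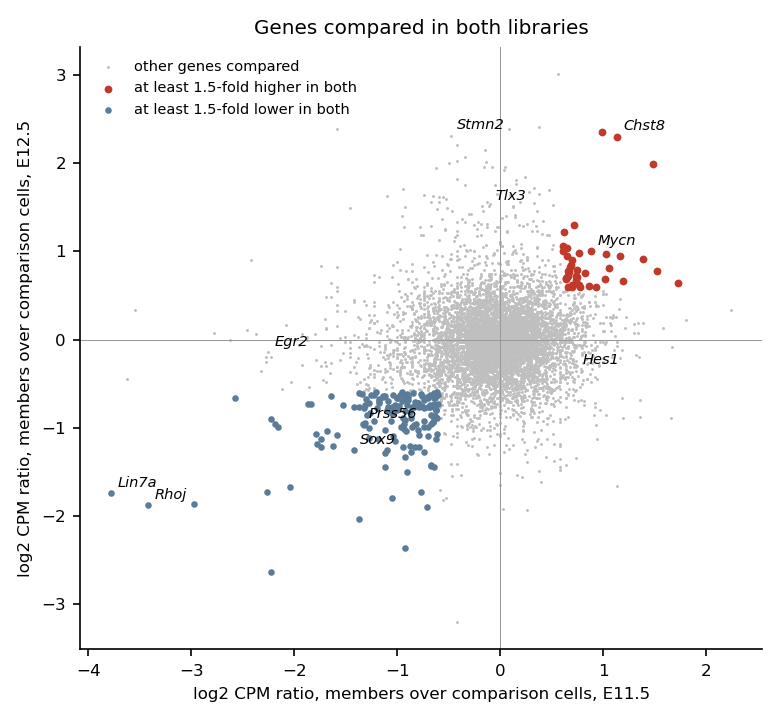
Log2 ratio of the CPM of members to that of comparison cells at E11.5 (x axis) and E12.5 (y axis) for each of the 7837 genes compared. Red points are the 40 genes at least 1.5-fold higher in both libraries and blue points the 156 lower in both. *Stmn2* and *Tlx3* are high at E12.5 only, *Egr2* is low at E11.5 only, and *Lin7a* and *Rhoj* are low in both.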

How the data were processed

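The deposited counts of 2 10x Genomics libraries (3′ V2 kit) were used. The authors made these UMI counts with Cell Ranger on the mm39 genome, as version 7.0.0 by the methods, 7.0 by the submitters' processing notes and 7.0.1 by the header of the matrices. Whether intronic reads were counted is not given in the sources used here. The tables hold 33207 genes, not normalized and without the filters on cells. Those filters (mitochondrial share and UMIs) followed the methods, while the doublet filter was left out of the choice of members and run as an alternative, with Scrublet in scanpy 1.11.5. The FACS gate had removed wide events. The *Prss56-Cre* library was not analysed here.

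Comparison cells were drawn without replacement, deepest member first. Levels are summed UMIs per 1000000 UMIs of the group (CPM) with exact Poisson intervals, ratios have exact conditional binomial intervals and shares Clopper-Pearson intervals, all at 95% (scipy 1.17.1). PCR duplicates were collapsed by UMIs. A group at 0 UMIs was set to 3 as a bound. The ratio was tested on simulated data.

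The genes named are the 3 of the rule, a fixed panel of 38 (37 in the tables), the 15 each way with the largest change in the library where it is smaller, among genes in at least 10% of the cells of the higher group in both libraries, and up to 4 further members of each of 18 lists ranked in the same way. Other list genes were named after their values were seen. Some genes that these rules name are not reported here. The members, lists and rules were chosen with earlier results of these data known. Gene positions are from GENCODE M39. Alternatives changed the UMIs asked of *Prdm12* and *Sox10*, doublets, depth, the comparison cells, the UMIs asked of a gene, the scaling and the fold.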

Additional observations from a re-analysis of the deposited data

How the results depend on the processing

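No paired analysis was possible because each stage has 1 library and no result comes from a test. The share of members among *Sox10*+ cells fell to 1.15% at E11.5 and 0.969% at E12.5 when 2 or more *Prdm12* UMIs were asked, which leaves few cells, and was 5.15% and 2.60% after thinning to 2000 UMIs. It stayed within its interval under the other alternatives, including the one without the 3-gene cells, which was chosen after seeing the data. The share of members with 2 or more of the 3 sensory genes was 0% at E11.5 and 73.3% at E12.5 with 2 or more *Prdm12* UMIs, on few cells. It was 0% at E12.5 after thinning, which also took UMIs of the sensory genes.

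From 40, the number of genes higher in both libraries went to 26 with 2 or more *Prdm12* UMIs and 26 with 2 or more *Sox10* UMIs, to 97 with *Neurog1* at 0 in comparison cells, to 5 at 100 or more UMIs per gene, to 1921 at 1 or more, where a few UMIs make a fold, and to 2 at 2-fold. From 156, the number lower went to 94 with 1 nearest cell per member, to 39 and 466 under the same UMI minimums, and to 25 at 2-fold.

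Of 875 log2 ratios of the named genes with at least 30 UMIs in each library, 1 for each gene, library and alternative, 693 stayed within their counting interval, 162 left it without a change of sign from a value past 1.5-fold, and 20 past 1.5-fold changed sign. With 2 or more *Prdm12* UMIs, at E11.5, *Arhgap24* went to -0.22, *Nol4l* to -0.34 and *Bbc3*, *Chst8* and *Dpysl5* to -0.73 each. These values rest on the 6 members left in that library. With 2 or more *Sox10* UMIs, at E12.5, *Neurod4* went to -0.025 and *Rufy3* to -0.16. With *Isl1* at 0 on both sides, at E12.5, *Arhgap24* went to -0.040, *Dpysl5* to -1.23, *Elavl3* to -0.18, *Khdrbs3* to -0.0033, *Neurod1* to -1.74, *Rufy3* to -0.28 and *Unc5c* to -0.79. Without the 3-gene cells, at E12.5, *Bbc3* went to -0.062, *Dpysl5* to -0.75, *Neurod4* to -0.75, *Rufy3* to -0.42 and *Unc5c* to -0.31. With a mean over cells of UMIs per 10000, *Camk2b* went to 0.65 at E11.5. The causes were not tested.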

Other observations

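Lists of other cell types were low in members and comparison cells alike. The autonomic list, of which 1 of 10 genes had enough UMIs to be compared, summed to 53.7 (37.0–75.5) CPM in members and 71.3 (59.6–84.6) in comparison cells at E11.5 and to 104 (84.7–127) and 98.0 (86.8–110) at E12.5, with *Maoa* its most abundant gene. *Gata2*, a factor of sympathetic neurons, had 2 and 3 UMIs at E11.5 and 10 and 33 at E12.5, a ratio of 0.89 (0.39–1.85). The melanoblast list had 26.1 (14.9–42.3) and 14.7 (9.68–21.4) CPM at E11.5 and 17.7 (10.3–28.3) and 23.7 (18.4–30.1) at E12.5. The erythroid list had 42.3 (27.7–62.0) and 24.5 (17.9–32.8) CPM at E11.5 and 7.29 (2.93–15.0) and 9.55 (6.29–13.9) at E12.5. The myeloid list had 1.63 (0.0412–9.07) and 19.0 (13.3–26.5) CPM at E11.5, where 33 of the 35 UMIs in comparison cells were *Fcer1g*, and 7.29 (2.93–15.0) and 3.54 (1.70–6.51) at E12.5. The endothelial list had 3.26 (0.394–11.8) and 1.63 (0.337–4.77) CPM at E11.5 and 17.7 (10.3–28.3) and 9.55 (6.29–13.9) at E12.5, with intervals that overlapped, and *Pecam1* was its most abundant gene.

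The list of mechanoreceptor and proprioceptor genes had 40.7 (26.3–60.1) CPM in members and 78.4 (66.1–92.3) in comparison cells at E11.5 and 92.7 (74.4–114) and 70.4 (61.0–80.9) at E12.5. Only *Etv4* and *Shox2* of its 13 genes could be compared. *Etv4*, an ETS factor that also acts in progenitors, was at least 1.5-fold lower in members in both libraries, and *Shox2*, a homeobox gene of mechanoreceptors, was higher at E12.5.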
